A study of Mus musculus with 12 samples.

Results

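The 41 genes described here are immediate early and other activity-induced genes, taken by symbol from a list of such genes. That list was chosen with earlier results of these data known. All 41 were found in all 12 count tables, out of 55487 genes in the tables, and all 41 passed the filter on low counts together with 21268 other genes. The lowest count of any of them in any library was 43, for Egr2. RNA came from the striatum of 12 mice, 3 in each of 4 groups. The double mutants, labelled cGAS-KO;HD, combined a cGAS knockout with the neo-deleted zQ175 allele. The HD mice were heterozygous for the same knock-in allele, an expanded CAG repeat in the mouse Htt gene, with cGAS intact. The cGAS-KO mice lacked cGAS, the cytosolic DNA sensor that signals through STING, and had no knock-in allele. The WT mice were C57BL/6J controls. The 4 groups allow the knock-in allele to be compared with and without cGAS. The sources used here state neither age, sex, litter, hour of collection nor any stimulus before it, nor which part of Cgas the knockout removes. The tissue is bulk striatum, so fewer cells of a type and less RNA per cell cannot be told apart.

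Immediate early genes are switched on within minutes of calcium entry, without new protein synthesis, by factors already bound at their promoters: CREB at the CRE motif and SRF at the CArG box. Their products are transcription factors of the FOS, JUN, EGR and NR4A families, which act on later genes, and effectors that act at synapses or feed back on MAP kinase and CREB signalling. In the striatum, dopamine and glutamate drive them in medium spiny neurons, its main GABAergic output cells, and the same genes are also expressed in cortical neurons.

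Libraries held 59195327 to 72765623 counts, with 26827 to 28348 genes detected. Levels are given as CPM, counts scaled to a common TMM-adjusted library size. Cgas, given here in CPM of total counts without the TMM adjustment, was rare in every group. It had 0.82 to 1.17 CPM in double mutants, 1.12 to 1.33 CPM in HD, 0.578 to 0.866 CPM in cGAS-KO and 1.29 to 1.58 CPM in WT. Its level is thus a weak check of the cGAS labels. Markers that define medium spiny neurons were high in all libraries, with none of 12 at 0. Their summed level was 1710 to 1750 CPM in double mutants, 1000 to 2000 CPM in HD, 3830 to 4720 CPM in cGAS-KO and 3030 to 4310 CPM in WT, and 10 of 12 fell in each of both knock-in comparisons. Markers of cortical projection neurons, none of 12 at 0, summed to 304, 419 and 339 CPM in double mutants, to 253, 319 and 336 CPM in HD, to 427, 311 and 1290 CPM in cGAS-KO and to 249, 760 and 876 CPM in WT, in the order of replicates 1, 2 and 3. Library cGAS-KO 3 also had 11.5% of its counts from mitochondrially encoded genes, against 5.3% to 9.03% in the other 11. Xist was high in 6 libraries, WT 1, HD 1 and 2, cGAS-KO 3 and double-mutant 2 and 3. Each group thus had 1 library whose Xist level differed from the other 2, namely WT 1 and cGAS-KO 3, which were high, and HD 3 and double-mutant 1, which were low. Xist was therefore high in 2 of 3 libraries of each knock-in group and in 1 of 3 of each other group. It was not balanced over the knock-in comparisons. WT 1 and cGAS-KO 3 also stood apart from their groups in cortical marker level. WT 1 differed from WT 2 and WT 3 in other markers as well. Its medium spiny neuron sum was 3030 CPM, against 3710 and 4310 CPM, and its choroid plexus sum 1910 CPM, against 146 and 73.6 CPM. Astrocyte markers summed to 2560 CPM in WT 1, against 1990 and 1900 CPM, and oligodendrocyte markers to 11400 CPM, against 9340 and 9650 CPM. The part of these differences in the values below was not tested. Choroid plexus markers, none of 6 at 0, summed to 73.6 to 2020 CPM over the 12 libraries, with wide ranges in every group, and their part in the values below was not tested.

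Set per kilobase of exon and averaged over 12 libraries, the highest levels among the 41 genes were those of Jund (53.1 CPM per kb), Vgf (49.6), Egr1 (34.2), Plk2 (31) and Arc (24.8). The lowest were Ptgs2 (0.967), Klf4 (0.788) and Atf3 (0.607 CPM per kb). The order compares mean levels only.

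In HD against WT, 4 of the 41 genes fell and none rose: the kinases Sgk1 and Plk2, the small G protein Arl4d and the activin subunit Inhba. Calls are at a Benjamini-Hochberg adjusted p under 0.05 in edgeR's quasi-likelihood test over 21309 genes, here called the edgeR adjusted p, and 2.67% of all genes tested were called lower and 1.43% higher. The log2 change was below 0 in 38 of 41, against 48% of all genes, and the median was -0.51 against 0.01. The exceptions were Atf3 at 0.15, Fos at 0.1 and Plk3 at 0.02, none of them called. Library values did not overlap in 8 genes, all lower in HD, where 13.1% of all genes were lower without overlap. The number called was 11 without WT 1, where 4.83% of all genes were called lower, 1 without WT 2 or without WT 3, and 2 without HD 2 or without HD 3. Over all genes, calls in either direction numbered 247 without WT 3, against 873 with all libraries, so calls dropped in general there. For WT 2, HD 2 and HD 3 left out, no share of all genes is given. With the cortical marker level as a covariate, Sgk1 and Inhba were called, where 1.89% of all genes were called lower, and the median was -0.16. With that covariate 25 of 41 changes were below 0. The median was -0.81 without WT 1, with 40 below 0, and -0.31 without WT 3, with 32 below 0.

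The same knock-in allele compared without cGAS, in double mutants against cGAS-KO, gave 3 genes that fell, Inhba, Sgk1 and Arl4d, and none that rose. Of all genes, 2.52% were called lower and 1.44% higher. Log2 changes were below 0 in 39 of 41 genes, against 49.5% of all genes, with a median of -0.64 against 0. Values did not overlap in 22 genes, all lower in double mutants, where 10.7% of all genes were lower without overlap. No gene of the list was called without cGAS-KO 1, without double-mutant 1 or without double-mutant 2, and 1 was called without cGAS-KO 2 and 2 without double-mutant 3. Over all genes, calls in either direction numbered 321 without double-mutant 2, against 843 with all libraries, so calls dropped in general there. For the other libraries left out here, no share of all genes is given. The median was -0.3 without cGAS-KO 3. With the cortical marker level as a covariate 8 were called, where 4.07% of all genes were called lower.

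These 2 comparisons share no library. Sgk1, Inhba and Arl4d were called lower in both, as were 1.61% of all genes, and 38 of 41 genes (92.7%) had a log2 change below 0 in both, against 34.2% of all genes. That count rests on the fit without covariates, since in HD against WT alone 25 of 41 were below 0 with the cortical covariate and 32 without WT 3. The knock-in effect averaged over both cGAS genotypes called 11 of 41 lower and none higher, where 7.63% of all genes were called lower and 5.59% higher. These were Sgk1, Plk2, Arl4d and Trib1, Inhba and Nptx2, the MAP kinase phosphatases Dusp1, Dusp6 and Dusp14, and the EGR factors Egr2 and Egr3. In 4 of the 11, Sgk1, Trib1, Arl4d and Inhba, all 6 knock-in libraries lay below all 6 others, an order found in 4.11% of all genes. The number called was 23 without WT 1, where 9.68% of all genes were called lower, 6 without WT 2, without WT 3 or without double-mutant 1, and 7 without HD 2, without HD 3 or without cGAS-KO 3. Over all genes, calls in either direction numbered 1784 without WT 2, against 2816 with all libraries, so calls dropped in general there. Without cGAS-KO 3, 7.87% of all genes were called lower. For the others left out here, no share of all genes is given. Sgk1, Inhba, Arl4d, Plk2 and Trib1 were called in all 22 alternative analyses of the averaged effect.

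**Figure D1:**
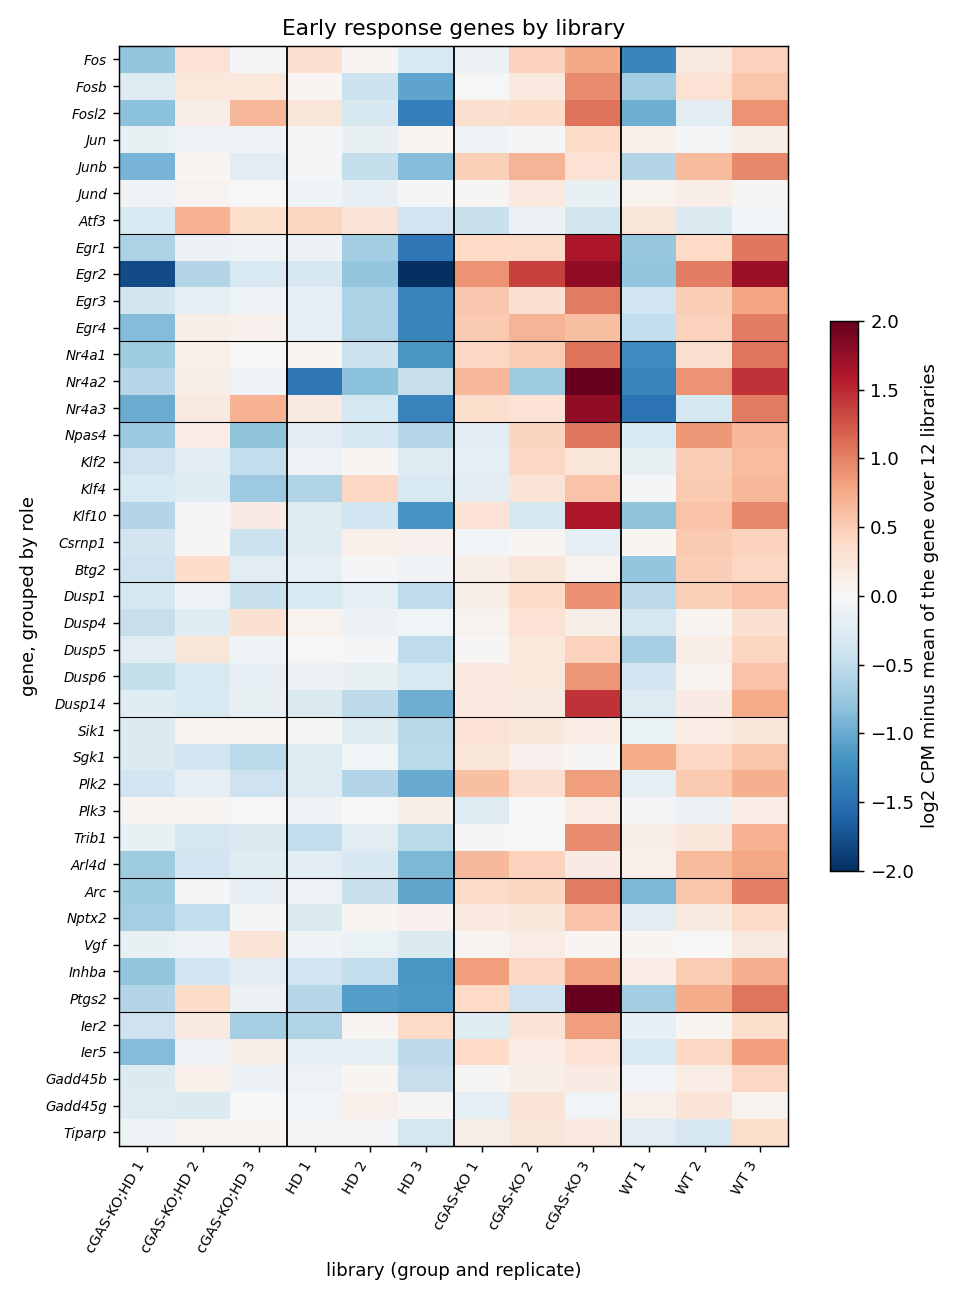
Log2 CPM of the 41 genes (rows, grouped by role) in 12 libraries (columns, 3 per group), each minus the gene's mean over the 12 libraries, with red above and blue below the mean. WT 1 was the lowest WT library in 33 of 41 genes and cGAS-KO 3 the highest cGAS-KO library in 25.

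Of the 6 kinases, pseudokinase and small G protein, 4 fell in the averaged effect, and the spread of all 6 within groups was under 2-fold. Sgk1 (ENSMUSG00000019970), the serum- and glucocorticoid-regulated kinase, had 52.7, 60.9 and 43.3 CPM in HD, against 106, 83.8 and 93.1 CPM in WT. It had 52, 48.3 and 43.3 CPM in double mutants, against 75, 66.8 and 64 CPM in cGAS-KO. All 6 knock-in libraries lay below all 6 others, and cGAS-KO lay below WT without overlap. The log2 change was -0.85 ± 0.12 in HD against WT (SE, edgeR adjusted p = 0.00271) and -0.52 ± 0.12 in double mutants against cGAS-KO (edgeR adjusted p = 0.0356). The second call was held in 1 of 6 analyses that left out a library, without cGAS-KO 3, and the first in 6 of 6. Sgk1 is also expressed in glia and vessel cells.

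Plk2 (ENSMUSG00000021701), a polo-like kinase that tunes synapse strength after sustained activity, had 108, 85.9 and 64.7 CPM in HD, against 113, 186 and 211 CPM in WT. Its double-mutant libraries had 99.6, 116 and 97.6 CPM, against 197, 163 and 231 CPM in cGAS-KO. The groups of each pair did not overlap, though WT 1 lay just above HD 1. The log2 change was -0.98 ± 0.23 in HD against WT (edgeR adjusted p = 0.0428) and -0.91 ± 0.23 in double mutants against cGAS-KO (edgeR adjusted p = 0.0549), and the averaged effect was -0.95 ± 0.17 (edgeR adjusted p = 0.00374). Without WT 2, WT 3, HD 2 or HD 3 in turn, the HD against WT change was -0.79 to -0.99 and no longer called. With the cortical marker level as a covariate it was -0.57 and not called. The HD against WT call was held in 8 of 17 alternative analyses.

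Arl4d (ENSMUSG00000034936), a small G protein of the ARF-like family, had 13.1, 12.1 and 8.1 CPM in HD, against 16.2, 23.5 and 25.9 CPM in WT. In double mutants it had 9.31, 11.6 and 12.8 CPM, against 23.8, 20.9 and 16.9 CPM in cGAS-KO. No knock-in library reached the lowest library without the allele. The log2 change was -0.98 ± 0.21 in HD against WT (edgeR adjusted p = 0.0242) and -0.87 ± 0.21 in double mutants against cGAS-KO (edgeR adjusted p = 0.042). The first was not called without WT 2, WT 3, HD 2 or HD 3 (-0.81 to -1.06), and the second was called in 1 of 6 analyses without a library, again without cGAS-KO 3. The first was also lost with the replicate block, with the cortical or the Xist covariate and with the compared groups alone. Each of these calls was held in 9 of 17 alternative analyses.

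Trib1, a pseudokinase that steers proteins to degradation, had 7.49, 9.15 and 7.22 CPM in HD, against 11.5, 12.3 and 17 CPM in WT. It had 9.55, 8.38 and 8.62 CPM in double mutants, against 10.7, 10.6 and 20.2 CPM in cGAS-KO, where cGAS-KO 3 stood high. The averaged log2 change was -0.71 ± 0.16 (edgeR adjusted p = 0.0136). Neither comparison alone was called, at -0.78 ± 0.23 in HD against WT and -0.64 ± 0.23 in double mutants against cGAS-KO. Sik1, a kinase that restrains the CRTC co-activators of CREB, had an averaged change of -0.29 ± 0.1, and Plk3, another polo-like kinase, one of 0.04 ± 0.08, and neither was called.

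**Figure D2:**
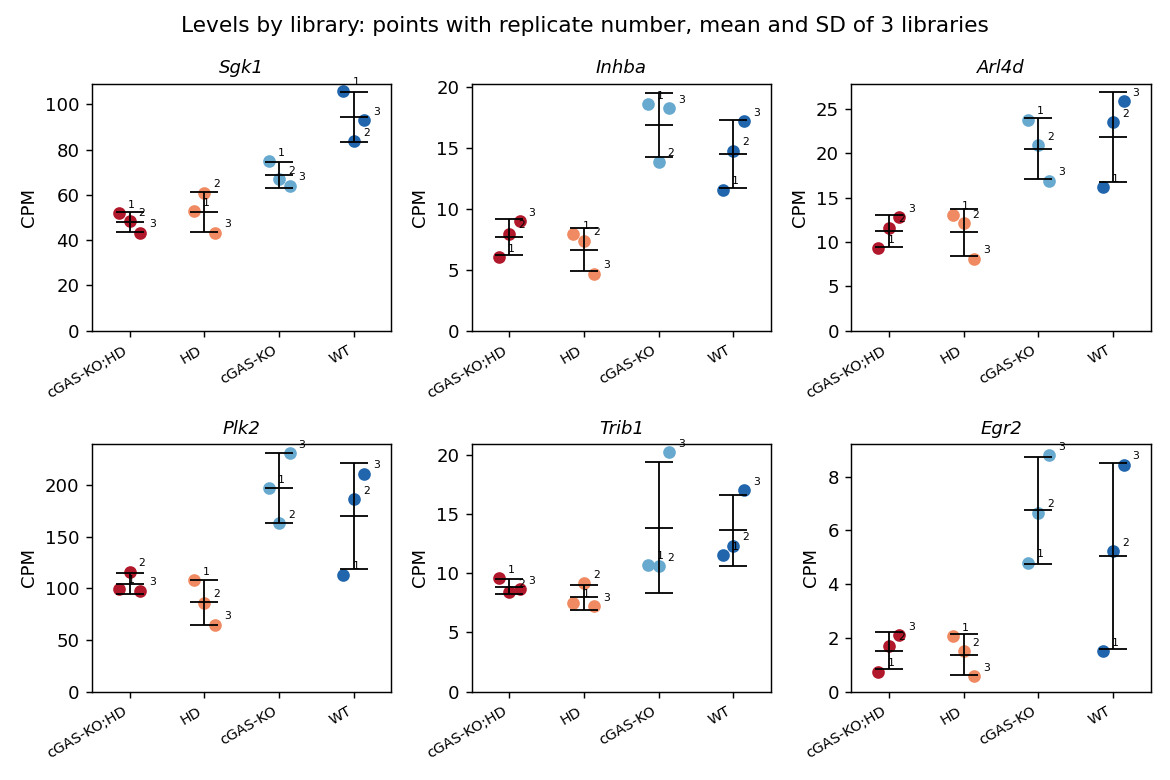
CPM of 6 genes in each library, 3 points per group numbered by replicate, with the group mean and SD. In Sgk1, Inhba, Arl4d and Trib1 all libraries with the knock-in allele lie below all libraries without it, while in Egr2 and Plk2 the library WT 1 lies near the knock-in libraries.

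Promoter sequence was available for 31 of the 41 genes, as 43 windows of 250 bases upstream of RefSeq starts on GRCm38.p6. The core of the CRE (TGACG or its reverse complement CGTCA) occurred in 25 of 43 windows (58.1%) and 20 of 31 genes, against 17.8% of 32841 windows of all genes. The full CRE, TGACGTCA, which contains both cores, occurred in 4 windows (9.3%, against 1.55%), those of Arl4d, Plk2, Dusp1 and Btg2. The CArG box occurred in 5 windows (11.6%, against 1.47%), from Egr2 and Dusp5, and the EGR motif GCGNGGGCG in 8 (18.6%, against 4.7%), searched on both strands. The AP-1 motif TGANTCA was in 1 window (2.33%, against 6.75%). Several windows of a gene overlap, and a match is a run of letters and not a measured binding site. The windows below show 3 full CREs among genes that fell in the averaged effect, the CArG box of Egr2, the CRE cores of Fos, which was not called in any comparison, and Inhba, which fell furthest among the steady genes and has neither motif in its window. They are written 5′ to 3′ on the gene's strand, ending at the base before the start, with CRE cores and CArG boxes in capitals.
Arl4d, chr11:101665291-101665540, + strand: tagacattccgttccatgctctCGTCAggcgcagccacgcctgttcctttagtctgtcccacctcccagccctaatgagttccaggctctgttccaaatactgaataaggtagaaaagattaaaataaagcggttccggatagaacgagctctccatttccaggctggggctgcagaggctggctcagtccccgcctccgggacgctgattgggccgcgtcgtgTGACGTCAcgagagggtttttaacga
Plk2, chr13:110394794-110395043, + strand: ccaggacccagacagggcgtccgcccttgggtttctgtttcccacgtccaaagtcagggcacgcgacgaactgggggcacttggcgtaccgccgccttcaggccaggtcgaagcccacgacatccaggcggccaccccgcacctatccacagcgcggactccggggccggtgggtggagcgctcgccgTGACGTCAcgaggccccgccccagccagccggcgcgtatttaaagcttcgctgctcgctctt
Dusp1, chr17:26508473-26508722, - strand: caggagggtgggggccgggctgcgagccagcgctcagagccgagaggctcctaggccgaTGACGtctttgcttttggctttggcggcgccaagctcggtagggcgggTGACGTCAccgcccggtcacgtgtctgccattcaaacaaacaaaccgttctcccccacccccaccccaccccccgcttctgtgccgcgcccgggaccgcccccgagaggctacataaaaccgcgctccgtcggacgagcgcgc
Egr2, chr10:67537619-67537868, + strand: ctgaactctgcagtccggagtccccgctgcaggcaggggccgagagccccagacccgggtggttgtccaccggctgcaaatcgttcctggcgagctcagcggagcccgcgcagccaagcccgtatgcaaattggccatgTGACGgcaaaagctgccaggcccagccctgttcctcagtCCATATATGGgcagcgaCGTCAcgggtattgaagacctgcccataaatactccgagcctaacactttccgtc
Fos, chr12:85473640-85473889, + strand: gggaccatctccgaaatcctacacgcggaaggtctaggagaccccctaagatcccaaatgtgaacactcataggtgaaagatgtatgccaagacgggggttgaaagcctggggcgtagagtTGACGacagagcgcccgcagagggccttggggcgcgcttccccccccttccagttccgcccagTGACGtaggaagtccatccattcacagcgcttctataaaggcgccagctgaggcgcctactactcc
Inhba, chr13:16011601-16011850, + strand: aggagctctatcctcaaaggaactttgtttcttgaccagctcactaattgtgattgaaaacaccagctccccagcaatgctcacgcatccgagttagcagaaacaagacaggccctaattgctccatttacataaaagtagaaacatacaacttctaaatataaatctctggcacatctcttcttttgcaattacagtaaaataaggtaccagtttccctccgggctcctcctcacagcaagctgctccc
The full CRE began 26 bases before the start of Arl4d, 62 before that of Plk2 and 143 before that of Dusp1. The CRE cores of Fos began 129 and 66 bases before its start.

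Among synaptic, secreted and enzyme effectors, Inhba and Nptx2 fell. Inhba (ENSMUSG00000041324), the beta-A subunit of activin A, a secreted factor induced by synaptic activity, had 7.93, 7.4 and 4.68 CPM in HD, against 11.6, 14.8 and 17.2 CPM in WT. Double mutants had 6.06, 7.99 and 8.98 CPM, against 18.6, 13.9 and 18.3 CPM in cGAS-KO. All 6 libraries with the allele lay below all 6 without it. Log2 changes were -1.12 ± 0.22 in HD against WT (edgeR adjusted p = 0.0129) and -1.14 ± 0.22 in double mutants against cGAS-KO (edgeR adjusted p = 0.0116). The first missed the threshold without WT 2 (-1.11) or WT 3 (-0.98), and the second without cGAS-KO 1 (-1.07), double-mutant 1 (-1) or double-mutant 2 (-1.17). The antisense gene B230303A05Rik overlaps Inhba, and had 10.1 to 14.6 CPM in all libraries with an averaged change of -0.05 ± 0.09. How the authors counted strands is not given, and whether exons of the 2 genes overlap was not checked. It is therefore not known whether some reads fit both genes.

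Nptx2, a pentraxin that clusters AMPA receptors, had 13.8, 15.6 and 21.5 CPM in double mutants, against 25.2, 25.8 and 32.7 CPM in cGAS-KO, without overlap. It had 18.2, 22.6 and 23.4 CPM in HD, against 19.1, 24.8 and 28.6 CPM in WT, with overlap. The change was -0.72 ± 0.19 in the first pair (edgeR adjusted p = 0.0517) and -0.18 ± 0.18 in the second, and the averaged change of -0.45 ± 0.13 was called (edgeR adjusted p = 0.0408). That call was held in 3 of 12 analyses that left out a library.

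Ptgs2, the prostaglandin synthase COX-2, had 2.39, 1.65 and 1.6 CPM in HD, against 2.18, 5.94 and 7.43 CPM in WT. It had 2.36, 4.58 and 3.25 CPM in double mutants, against 4.68, 2.66 and 14.4 CPM in cGAS-KO. WT 1 lay inside the HD range and cGAS-KO 3 stood far above the other cGAS-KO libraries. Its averaged change of -1.28 ± 0.42 was not called. Arc, which removes AMPA receptors from synapses and was named after its values were seen, ran from 33 to 63.2 CPM in HD, against 36.4 to 137 CPM in WT, with an averaged change of -0.91 ± 0.31 (edgeR adjusted p = 0.0877). Vgf, a secreted neuropeptide precursor, had an averaged change of -0.15 ± 0.07, not called.

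The EGR factors, zinc finger proteins of which EGR1 is a common marker of neuronal activity, had the lowest medians of the role groups in HD against WT, at -1.08, and in double mutants against cGAS-KO, at -1.03. Egr2 had 2.06, 1.49 and 0.569 CPM in HD, against 1.51, 5.22 and 8.44 CPM in WT. It had 0.743, 1.71 and 2.09 CPM in double mutants, against 4.79, 6.66 and 8.79 CPM in cGAS-KO. WT 1 lay among the knock-in libraries, and every other library without the allele lay above them all. The averaged change of -2.02 ± 0.44 was the furthest from 0 of the 41 genes (edgeR adjusted p = 0.0119). It was called in 21 of 22 alternative analyses, missing in the one without a low-count filter.

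Egr3 had 61.6, 45.4 and 27.4 CPM in HD, against 52.9, 97.1 and 120 CPM in WT. It had 53.8, 60.6 and 65.5 CPM in double mutants, against 101, 85.9 and 142 CPM in cGAS-KO, without overlap. The averaged change was -0.94 ± 0.24 (edgeR adjusted p = 0.0276), called in 4 of 12 analyses that left out a library. Egr4 at -0.92 ± 0.27 and Egr1 at -1.13 ± 0.36 were not called in the averaged effect (edgeR adjusted p = 0.0505 and 0.0748).

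The 3 NR4A orphan nuclear receptors all varied by 4.97-fold or more within a group. Nr4a2 had 6.11, 9.37 and 12 CPM in HD, against 6.59, 30.7 and 44.8 CPM in WT. It had 11.1, 18.1 and 15.5 CPM in double mutants, against 26.1, 10.1 and 77.5 CPM in cGAS-KO. Both pairs overlapped, through WT 1 and cGAS-KO 2. The averaged change was -1.46 ± 0.57 and not called. Nr4a1 had 54.9, 39.6 and 23.7 CPM in HD, against 22.4, 66.5 and 112 CPM in WT. It had 32.5, 57.2 and 53.2 CPM in double mutants, against 70.8, 75.4 and 113 CPM in cGAS-KO, without overlap. In HD and WT it overlapped through WT 1. Nr4a3 had 15.3, 10.6 and 5.35 CPM in HD, against 4.87, 10.6 and 27.8 CPM in WT. It had 6.82, 15.3 and 21.8 CPM in double mutants, against 17.2, 16.6 and 46.4 CPM in cGAS-KO. Both pairs overlapped in Nr4a3. The averaged changes were -0.81 ± 0.37 for Nr4a1 and -0.67 ± 0.51 for Nr4a3, with no call. With the cortical marker level as a covariate, the HD against WT changes of Nr4a1, Nr4a2 and Nr4a3 were 0.21, 0.2 and 0.75, above 0 and not called.

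None of the 7 AP-1 and ATF factors was called in any comparison. Junb, a partner of FOS proteins, had 34.4, 25.1 and 19.2 CPM in HD, against 23.3, 54 and 68 CPM in WT. It had 18.2, 35.9 and 30 CPM in double mutants, against 48.7, 55.9 and 42.5 CPM in cGAS-KO, without overlap. Its averaged change was -0.84 ± 0.27 (edgeR adjusted p = 0.065), and the antisense gene Prdx2, which overlaps it, changed by 0.15 ± 0.07 without a call. Fos, named after its values were seen, had 21.3, 17.3 and 13.6 CPM in HD, against 6.79, 19.1 and 23.1 CPM in WT. Its averaged change was -0.21 ± 0.3, with a 95% interval of -0.87 to 0.45. Fosb and Fosl2, other partners of JUN proteins, had averaged changes of -0.46 ± 0.25 and -0.49 ± 0.4, without a call. Jun and Jund were steadier, with averaged changes of -0.16 ± 0.08 and -0.09 ± 0.06. Atf3, induced by stress and injury, was the only gene with a change above 0.1 in the averaged effect, at 0.38 ± 0.2. It had 1.71, 1.51 and 0.966 CPM in HD, against 1.5, 1.03 and 1.22 CPM in WT. It had 1.02, 2.04 and 1.62 CPM in double mutants, against 0.925, 1.16 and 0.984 CPM in cGAS-KO. The groups overlapped in both pairs.

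The remaining transcription factors and co-factors had no call, and all 6 had averaged changes below 0. Npas4, a neuron-specific factor induced by calcium, had 15.6, 14.2 and 12.2 CPM in HD, against 14.6, 33.1 and 28.8 CPM in WT. It had 10.8, 20.1 and 10.4 CPM in double mutants, against 15.6, 24.6 and 37.4 CPM in cGAS-KO. Its averaged change was -0.89 ± 0.27 (edgeR adjusted p = 0.0547). Klf2, which is also an endothelial factor, had 1.38, 1.58 and 1.31 CPM in double mutants, against 1.61, 2.45 and 2.17 CPM in cGAS-KO. It had 1.71, 1.89 and 1.53 CPM in HD, against 1.66, 2.57 and 2.8 CPM in WT, and its averaged change was -0.5 ± 0.16, not called. Endothelial markers, with none of 10 at 0, summed to 63.8 to 94.8 CPM in double mutants, 99.1 to 125 CPM in HD, 105 to 115 CPM in cGAS-KO and 114 to 135 CPM in WT, and their part in the Klf2 values was not tested. Klf4, Klf10, Csrnp1 and Btg2 had averaged changes of -0.22 to -0.92. Csrnp1 shares its strand and part of its locus with the microglial gene Cx3cr1. Whether their exons overlap was not checked, so the counts of Csrnp1 are uncertain.

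Of the 5 MAP kinase phosphatases, which switch off the ERK, JNK and p38 kinases, 3 fell in the averaged effect. Dusp1 had 16.3, 17.7 and 14.2 CPM in HD, against 14, 28.1 and 30.1 CPM in WT. It had 15.8, 18.8 and 14.8 CPM in double mutants, against 22, 26.1 and 38.1 CPM in cGAS-KO. WT 1 was the lowest of these 12 libraries. Its averaged change was -0.69 ± 0.19 (edgeR adjusted p = 0.0319), and Ergic1, on the opposite strand of its locus, changed by -0.14 ± 0.06 without a call.

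Dusp6, a phosphatase of ERK, had 24.9, 24.4 and 21.9 CPM in HD, against 20.8, 28.3 and 40.2 CPM in WT. It had 19.4, 21.9 and 24.2 CPM in double mutants, against 31.1, 31.5 and 50 CPM in cGAS-KO. The double mutants lay below cGAS-KO without overlap, while WT 1 lay below all HD libraries. The averaged change was -0.55 ± 0.16 (edgeR adjusted p = 0.0411). Dusp14 had 20.1, 17 and 12.5 CPM in HD, against 20.5, 27.5 and 40.8 CPM in WT. It had 20.8, 19.9 and 22.2 CPM in double mutants, against 28, 27.8 and 66.8 CPM in cGAS-KO. Neither pair overlapped, and cGAS-KO 3 stood at over 2 times the next cGAS-KO library. The averaged change was -0.9 ± 0.25 (edgeR adjusted p = 0.0387). Calls were held in 4 of 12 analyses that left out a library for Dusp1, in 3 for Dusp6 and in 5 for Dusp14. Dusp4 and Dusp5, nuclear phosphatases of ERK, had averaged changes of -0.17 ± 0.14 and -0.22 ± 0.17, without a call.

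The 5 stress-linked and other early genes had no call. Ier5 had 20.3, 20.2 and 16.2 CPM in HD, against 18.7, 30.9 and 41 CPM in WT. It had 12.7, 21.7 and 25.1 CPM in double mutants, against 30.7, 25.8 and 28.2 CPM in cGAS-KO, with a narrow gap between the groups. Its averaged change was -0.59 ± 0.2 (edgeR adjusted p = 0.0719). Ier2 had 2.23, 3.51 and 4.43 CPM in HD, against 3.02, 3.48 and 4.31 CPM in WT. It had 2.56, 3.86 and 2.14 CPM in double mutants, against 2.87, 4.05 and 6.09 CPM in cGAS-KO. Both pairs overlapped. Gadd45b and Gadd45g, stress-induced growth arrest factors, and Tiparp, a mono-ADP-ribosyltransferase, had averaged changes of -0.27 ± 0.11, -0.15 ± 0.09 and -0.13 ± 0.11.

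**Figure D3:**
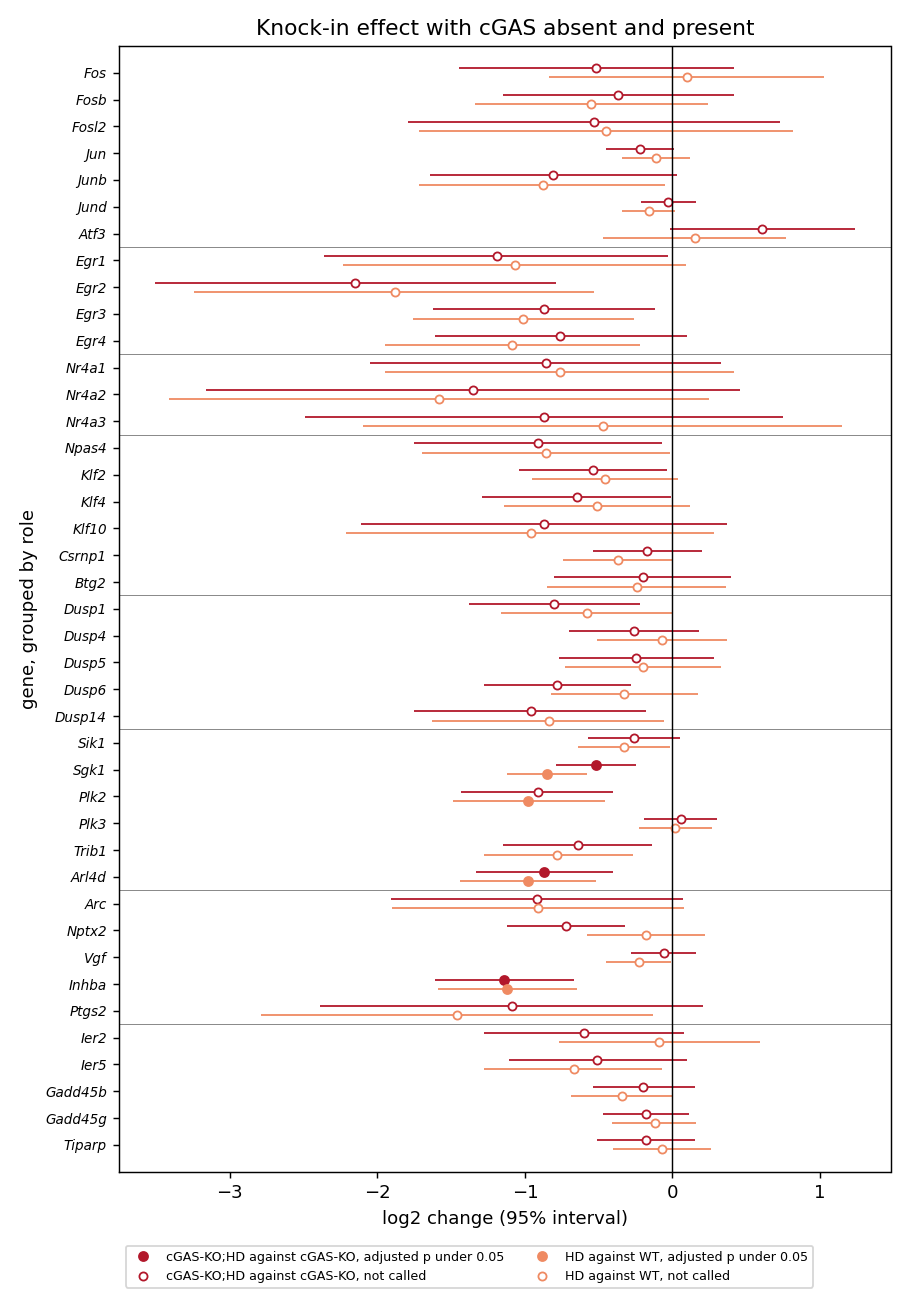
Log2 change with its 95% interval for each gene (rows, grouped by role) in double mutants against cGAS-KO (dark red, upper mark) and in HD against WT (orange, lower mark), with filled points where the adjusted p is under 0.05. Filled points are those of Sgk1, Inhba and Arl4d in both comparisons and of Plk2 in HD against WT, and 38 of 41 genes lie left of 0 in both.

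Genes were called steady where the highest library was at most 2-fold the lowest in every group, and 19 of 41 were (46.3%), against 68.7% of all genes tested. The steady genes were Jun, Jund, Atf3, Klf2, Csrnp1, Dusp4, Dusp6, Sik1, Sgk1, Plk2, Plk3, Trib1, Arl4d, Nptx2, Vgf, Inhba, Gadd45b, Gadd45g and Tiparp. Closest to the limit were Dusp6 at 1.93-fold and Atf3 at 1.97-fold inside it and Klf4 at 2-fold just past it. All 6 kinases, pseudokinase and small G protein were steady, at 1.31-fold to 1.9-fold. All 4 EGR factors were past the limit, at 2.27-fold to 5.48-fold, and so were the 3 NR4A receptors, at 4.97-fold to 7.63-fold. The widest folds were those of Nr4a2 (7.63), Nr4a3 (5.68), Egr2 (5.48), Ptgs2 (5.39) and Nr4a1 (4.97).

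Spread lay mostly within WT, where 19 of 41 genes passed 2-fold (46.3%, against 15.2% of all genes). In double mutants 4 did (9.76%, against 13.2%), in HD 9 did (22%, against 12.7%) and in cGAS-KO 8 did (19.5%, against 20.2%). The library farthest from its group's median was WT 1 on the low side in 17 of the 19 WT cases, HD 3 on the low side in 8 of the 9 HD cases and cGAS-KO 3 on the high side in 7 of the 8 cGAS-KO cases. In double mutants it was double-mutant 1 on the low side in all 4. In each group this was also the library whose Xist level differed from the other 2, and the part of that difference in the spread was not tested. Over the 41 genes, WT 1 was the lowest WT library in 33 (80.5%, against 38.7% of all genes), with a median log2 distance of -0.7 to the other 2 WT libraries. The median log2 distance to the other 2 libraries of the group was -0.39 for HD 3, 0.37 for cGAS-KO 3 and -0.39 for double-mutant 1, and within 0.01 of 0 over all genes for these libraries.

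In HD against WT, 4 of the 19 steady genes were called and none of the 22 others. The steady genes had a median log2 change of -0.33 and a median SE of 0.17, and the others -0.8 and 0.38. In double mutants against cGAS-KO, 3 of 19 and 0 of 22 were called, with medians of -0.26 and -0.84. In the averaged effect, 7 of 19 and 4 of 22 were called, with medians of -0.27 and -0.82, and all 22 variable genes were below 0. Spread enters the test itself, so that fewer calls among variable genes are in part given by how they were sorted.

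**Figure D4:**
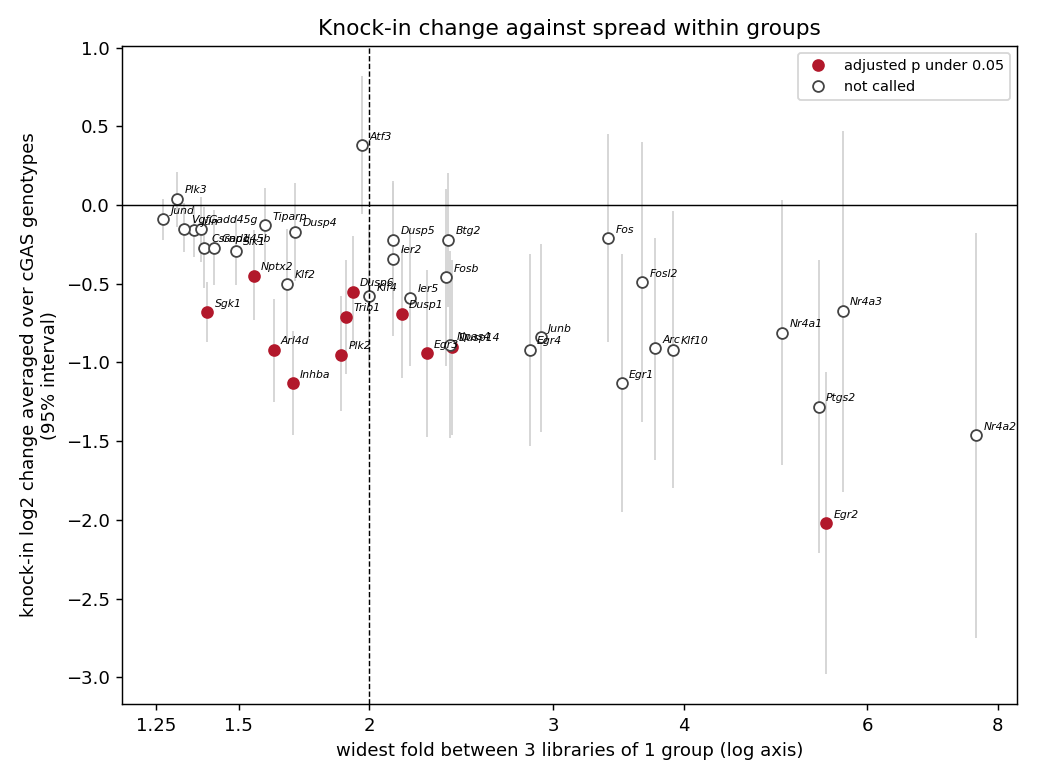
Averaged knock-in log2 change with its 95% interval against the widest fold between the 3 libraries of a group (log axis), for 41 genes. The dashed line marks the 2-fold limit, with 19 genes up to it and 22 past it. Red points passed the test, and intervals widen to the right.

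The mean log2 CPM of the 41 genes was 3.51, 3.97 and 3.9 in double mutants, 3.83, 3.75 and 3.38 in HD, 4.19, 4.24 and 4.69 in cGAS-KO and 3.63, 4.31 and 4.64 in WT. WT 1 lay inside the HD range, and the other 5 libraries without the knock-in allele lay above all 6 with it. The 3 libraries with the highest cortical marker sums, cGAS-KO 3, WT 3 and WT 2, were the 3 with the highest means. Libraries cGAS-KO 1 and 2, with cortical sums of 427 and 311 CPM, lay in the range of the double mutants for cortical markers (304 to 419 CPM) or just above it, and had higher means for the early response genes than all 3 double mutants. In the other pair, WT 1 had a cortical sum of 249 CPM, just below the HD range of 253 to 336 CPM. Its mean for the early response genes lay inside the HD range. With the cortical marker level as a covariate the median change was -0.16 in HD against WT, against -0.51 without it. It was -0.45 in double mutants against cGAS-KO, against -0.64, and -0.23 in the averaged effect, against -0.58. The averaged effect with this covariate called 7 genes (Sgk1, Inhba, Arl4d, Plk2, Trib1, Egr2 and Dusp1), where 5.89% of all genes were called lower. The part of cortical tissue, of sex and of the loss of medium spiny neuron RNA in these values was not tested.

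**Figure D5:**
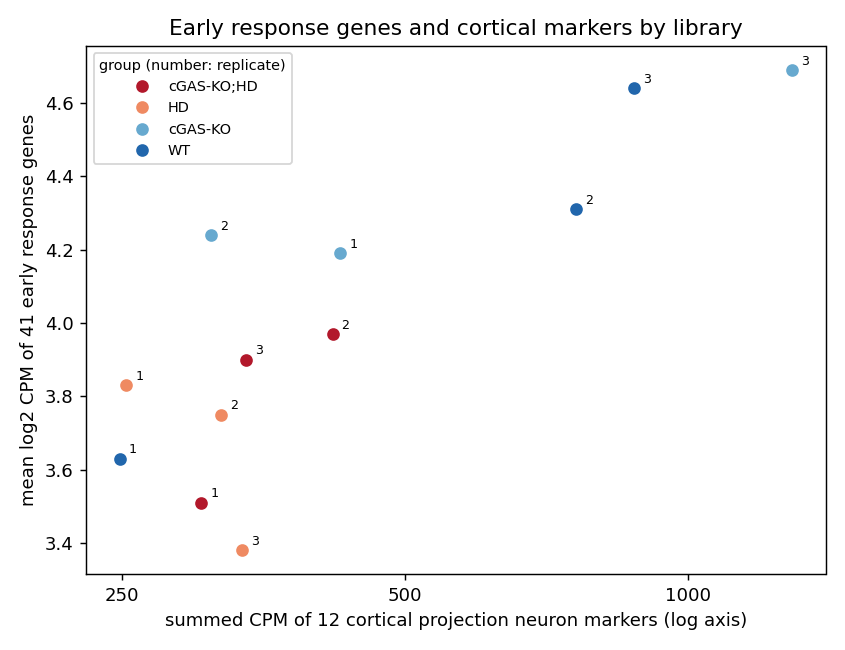
Mean log2 CPM of the 41 genes (vertical) against the summed CPM of 12 cortical projection neuron markers (horizontal, log axis), 1 point per library, coloured by group and numbered by replicate. WT 1 lies with the libraries that carry the knock-in allele, and cGAS-KO 1 and 2 lie above the double mutants at similar cortical marker sums.

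Loss of cGAS gave no call among the 41 genes. In double mutants against HD none passed, and none had an unadjusted p under 0.05, while 1 of 21309 genes was called (0.00469%). The median log2 change was 0.11, with a range of -0.34 to 0.85, and 12 of 41 were below 0, against 48.9% of all genes. Library values overlapped in all 41, where 8.33% of all genes were lower and 8.76% higher without overlap. The median was 0 without HD 3, with 20 of 41 below 0, 0.02 without double-mutant 2, 0.26 without double-mutant 1 and -0.14 with the cortical marker level as a covariate. In cGAS-KO against WT none passed, as for all genes (0%). The median was 0.21, and 11 of 41 were below 0, against 49.6% of all genes. It was -0.03 without WT 1, 0.01 without cGAS-KO 3 and -0.21 without both. An unadjusted p under 0.05 was found for 2 genes, Sgk1 at -0.46 ± 0.12 (95% interval -0.73 to -0.19, edgeR adjusted p = 0.919) and Csrnp1 at -0.42 ± 0.17 (edgeR adjusted p = 0.919). DESeq2 and limma-voom also called none in either comparison. Over all genes, 913 of 21309 had an unadjusted p under 0.05 in that comparison. Sgk1 was the only one of the 41 without overlap, lower in all 3 cGAS-KO libraries, where 4.53% of all genes were lower and 4.25% higher without overlap. In double mutants against HD its change was -0.13 ± 0.12, with overlap.

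The interaction asks whether the knock-in effect differs with and without cGAS. None of the 41 genes was called or had an unadjusted p under 0.05, 1 gene of all was called (0.00469%), and DESeq2 and limma-voom called none of the 41. Log2 differences were below 0 in 21 of 41, against 50.9% of all genes. This split depended on single libraries, with 8 of 41 below 0 without WT 1 and 34 without WT 3, and on the model, with 34 below 0 with the cortical covariate and 6 with limma-voom quality weights. Up to 5 genes had an unadjusted p under 0.05 in these alternatives. The smallest p was that of Nptx2, at -0.54 on the log2 scale (95% interval -1.11 to 0.02), and the next that of Sgk1, at 0.33 (95% interval -0.05 to 0.71). Intervals of single genes spanned up to 5.05 log2 units, for Nr4a2, so differences of several fold between the 2 knock-in effects could not be detected in the variable genes.

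Of 29 tested kinases, calcium channels, phosphatases and transcription factors that act upstream of the early response, in the calcium, CREB and SRF routes, 8 fell in HD against WT, where 2.67% of all genes did. In double mutants against cGAS-KO 5 fell, where 2.52% of all genes did, and in the averaged effect 12 fell and 17 did not pass the test, where 7.63% of all genes fell. None rose, and the median changes were -0.22, -0.19 and -0.25 in these comparisons. Camk2b, a calmodulin-dependent kinase of synapses, had 584, 530 and 503 CPM in HD, against 737, 856 and 916 CPM in WT, with an averaged change of -0.63 ± 0.07 (edgeR adjusted p = 9.93e-05). Camk4, a nuclear kinase that phosphorylates CREB, had 33.6, 38.6 and 35.5 CPM in double mutants, against 83.9, 70.3 and 86.3 CPM in cGAS-KO, with an averaged change of -0.96 ± 0.11 (edgeR adjusted p = 0.000233). Ppp3ca, the calcineurin catalytic subunit, and Camkk2, which activates Camk4, had averaged changes of -0.94 ± 0.13 and -1.05 ± 0.16, both called. Crtc1, a co-activator of CREB, fell by 0.37 ± 0.07 in the averaged effect, and Cacna1c, the L-type calcium channel, by 0.28 ± 0.05. Several of these are enriched in medium spiny neurons, whose markers fell in the same libraries.

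Among 29 other activity-induced genes, 2 fell in each knock-in comparison, Per1 and Rasl11b, and none rose. Of all genes, 2.67% were called lower in HD against WT and 2.52% in double mutants against cGAS-KO. The averaged effect called 5 lower and 1 higher, where 7.63% of all genes were called lower and 5.59% higher. Median changes of the 29 were -0.02, -0.09 and -0.06 in these comparisons, against -0.51, -0.64 and -0.58 for the 41 genes. This list thus had no general shift like that of the 41. Both lists were chosen with earlier results of these data known, so their contrast cannot show that the shift is particular to the 41. Rasl11b, a Ras-like protein, had an averaged change of -1.18 ± 0.16, the clock gene Per1 one of -0.74 ± 0.12 and the synaptic scaffold gene Homer1 one of -0.96 ± 0.19. The gene that rose was Scg2, a secretory granule protein, at 0.24 ± 0.07 (edgeR adjusted p = 0.0449), with 674, 585 and 619 CPM in double mutants, against 527, 541 and 534 CPM in cGAS-KO, and 627, 607 and 540 CPM in HD, against 575, 468 and 447 CPM in WT. Neither list had a call in the comparisons of cGAS loss or in the interaction.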

How the data were processed

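Poly(A) RNA from the striatum of 12 mice was made into directional libraries, per the labels. Each deposited table gives raw counts by Ensembl gene, made by the authors with an aligner, annotation, build and strand setting not given in the sources used here. Symbols came from GENCODE M21 for 55141 of 55487 IDs (99.4%). Sample titles gave the groups and replicate numbers.

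Genes passing filterByExpr (minimum count 10, minimum total 15) over the 4 groups were fitted with edgeR 4.0.16 (R 4.3.3), TMM scaling and the robust quasi-likelihood test, with 1 mean per group and 8 residual degrees of freedom. SEs and 95% intervals come from that fit, and p-values were adjusted over all 21309 genes. The common dispersion was 0.0326. Spread within groups used log2 CPM with a prior count of 2. On counts simulated for HD against WT over 21309 genes, 18 of 50 genes changed by 1.5-fold, 44 of 50 by 2-fold and 50 of 50 by 4-fold were recovered, with 11 false calls.

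The 41 genes, their roles, the 59 upstream and other activity-induced genes (57 matched a symbol) and the marker lists were chosen with earlier results of these data known. The 57 genes stand for 29 tested entries in each of the 2 lists, so a gene was entered more than once. Full values are given for genes called in any comparison, the gene of smallest p in each role in each of the 2 knock-in comparisons and the 5 of widest spread. Other genes given by values were chosen after their values were seen. Alternatives were DESeq2 1.42.0, limma 3.58.1 (voom), other scalings, filters and covariates, the replicate number as a block, and leaving out libraries. Whether replicate numbers pair the mice is not stated in the titles, and the fit reported treats the mice as unpaired.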

Additional observations from a re-analysis of the deposited data

How the results depend on the processing

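Among the 41 genes, HD against WT called 4 lower. It called 2 with the replicate block, with the cortical marker level or with the Xist level as a covariate (the last chosen after seeing the data), 23 in limma-voom with sample quality weights (where 14.2% of all genes were called lower and 14.6% higher), 16 with WT 1 and cGAS-KO 3 both left out (9.72% lower and 6.8% higher), and 1 to 11 with a single library left out. Double mutants against cGAS-KO called 3. It called 5 with a filter of 1 CPM in 3 libraries, in limma-voom or with both libraries left out, 6 with the compared groups alone, 8 in DESeq2, with quality weights or with the cortical covariate, and 0 to 3 with a single library left out. Of all genes, 7.97% were called lower there with quality weights and 4.67% with both libraries left out. The averaged effect called 11. It called 5 without a low-count filter, 19 with the stricter filter, 7 with the cortical covariate, 22 in DESeq2, 25 with quality weights, 23 with both libraries left out and 6 to 23 with a single library left out. Of all genes, 15.5% were called lower there with quality weights and 11.3% with both libraries left out. With the Xist level as a covariate, double mutants against cGAS-KO called 2, with Arl4d lost. The averaged effect then called 8, with Nptx2, Dusp1 and Dusp6 lost. With that covariate, 2.11% of all genes were called lower in HD against WT. The share was 1.97% in double mutants against cGAS-KO and 6.36% in the averaged effect. Quality weights were 0.409 for WT 1 and 0.164 for cGAS-KO 3. All these calls were lower except 1 of the 25 with quality weights, and the causes of the differences were not tested. For the replicate block, filters, DESeq2, unweighted limma-voom, the compared groups alone and most single libraries left out, no share of all genes is given. Those counts therefore do not show whether the setting moved the 41 genes in particular or all genes. Steady genes numbered 19, where 68.7% of all genes were steady. There were 9 at a limit of 1.5-fold, where 47.5% of all genes were, and 31 at 3-fold, where 84.3% were. The comparisons of cGAS loss and the interaction called 0 of 41 in every alternative run. The interaction and the averaged effect were not run with the compared groups alone, since they need all 12 libraries.

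Among the genes followed singly, which are those given full values, Arc, Egr1, Egr4 and the named genes of the other 2 lists, directions turned in 13 results, none called in either analysis. Over all 41 genes, HD against WT had 25 below 0 with the cortical covariate and 32 without WT 3, against 38 in the fit reported. In HD against WT the cortical covariate gave 0.06 for Nptx2, 0.09 for Dusp6, 0.2 for Nr4a2, 0.23 for Ier2, 0.75 for Nr4a3 and 0.21 for Nr4a1. The averaged change of Nr4a3 was 0.19 with that covariate. The Xist covariate and leaving out HD 1 each gave -0.03 for Atf3. Ier2 was 0.06 without WT 3 and 0.13 without HD 1, and Nr4a3 was 0.43 without WT 3. With single libraries left out in turn, HD against WT ranged from -0.03 to 0.35 for Atf3, from -0.35 to 0.13 for Ier2 and from -0.9 to 0.43 for Nr4a3. Nptx2 in cGAS-KO against WT was -0.07 with both libraries left out. Over all genes, calls ranged from 247 to 6135 in HD against WT (873 in the fit reported), from 321 to 3306 in double mutants against cGAS-KO (843) and from 1784 to 6799 in the averaged effect (2816).

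Sample titles do not say whether same-numbered mice were paired, and with 3 libraries per group the check below cannot settle it. Same-numbered libraries of different groups deviated together, at a correlation over 0.1, in 2 of 18 pairs, with a range of -0.45 to 0.37. With the replicate block, double mutants against cGAS-KO called 3, with Arl4d lost and Nptx2 gained, and the averaged effect 11, with Egr3 lost and Npas4 gained. In HD against WT it left Sgk1 and Inhba.

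With 3 mice per group, fold changes under 2 were often missed in simulation. Recovery for the 41 genes in particular was not tested. Their median SD within groups was 0.39 on the log2 scale, against 0.22 for all genes tested. In HD against WT, Egr2 at -1.88, Nr4a2 at -1.58 and Ptgs2 at -1.46 were not called, while Inhba at -1.12 was. Wide intervals in the EGR and NR4A genes limit every statement about them. Xist, cortical and choroid plexus marker levels differ between libraries of the same group. Counting error was not measured apart from these differences. It weighs most in genes with few counts, such as Egr2, Atf3 and Klf2, with lowest counts of 43, 57 and 92.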
